A study of Homo sapiens with 6 samples.

Results

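The human ATP-binding cassette (ABC) genes were examined in an enzalutamide-resistant prostate cancer line and its parent. Members were the protein-coding genes of the deposited table whose symbol is ABC, a subfamily letter from A to G and a number. This rule found 45 of the 35554 genes in the table: 12 in subfamily ABCA, 9 in ABCB, 11 in ABCC, 4 in ABCD, 1 in ABCE, 3 in ABCF and 5 in ABCG. Polyadenylated RNA was sequenced from parental LNCaP cells (n = 3), an established line from a metastatic human prostate carcinoma, and from the enzalutamide-resistant derivative, called LNCaP-enzaR here (n = 3). Enzalutamide inhibits androgen signalling and is used against advanced prostate cancer, and according to the study's methods the derivative was selected by long culture with it and then maintained in it at a reduced dose. Each library came from its own T25 flask harvested at about 70% confluence. Each line is therefore represented by 1 culture history, and the p-values below measure the spread between flasks. Neither group has a further genetic change or treatment in its labels, and they do not mention enzalutamide in the flasks that were harvested.

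ABC proteins share a pair of cytoplasmic domains that bind and hydrolyse ATP, and most members couple this to moving a substrate across a membrane. ABCA and ABCG proteins largely handle lipids and sterols, and several ABCB, ABCC and ABCG proteins pump drugs, conjugates and bile salts out of cells. Most ABCD proteins import fatty acids into peroxisomes, and ABCD4 releases cobalamin from lysosomes. ABCE1 and the ABCF proteins lack membrane domains and act on ribosomes and translation. In cancer the family is best known for drug efflux. Lists of drug exporters (9 genes) and lipid exporters (9 genes) were kept apart from the remaining 27 members.

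Libraries held 77759122 to 98616465 counts, and ABC genes took 0.144% to 0.171% of them. Expression levels are CPM, counts per 1000000 of the TMM-scaled library total. On this scale 3 counts, the limit that a count of 0 allows, came to 0.0302 to 0.0382 CPM. This limit covers counting error only. Mitochondrial transcripts made up 6.72% to 7.06% of the counts in parental and 14.7% to 15.5% in LNCaP-enzaR libraries. Leaving those genes out of the table gave 13 higher and 7 lower ABC genes, the counts given below. All 6 markers of prostate luminal epithelium were expressed, with a summed level of 4252 to 4366 CPM in parental and 2817 to 3108 CPM in LNCaP-enzaR cells. The 9 markers of basal, fibroblast, endothelial and leukocyte cells that were in the table summed to 19.7 to 23.1 CPM and 10.2 to 11.3 CPM, mostly COL1A1 and VWF. The fibroblast markers went opposite ways, with COL1A1 lower (13.4 ± 1.5 to 4.29 ± 0.436 CPM, SD, n = 3 each, log2 fold change −1.64) and LUM higher (0.425 ± 0.151 to 1.44 ± 0.243 CPM, SD, log2 fold change 1.78). The leukocyte marker PTPRC and the endothelial marker PECAM1 had at most 5 and 4 counts in any library. The other leukocyte marker, CD68, reached 13 counts, and the other endothelial marker, VWF, had 345 to 555. The part of these marker differences in the results was not tested.

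Of the 45 ABC genes, 34 passed the filter on low counts, and 20 of these were called, which required an adjusted p no higher than 0.05 together with a change of 1.5-fold or more (the threshold below; edgeR quasi-likelihood test with Benjamini-Hochberg adjustment over all 19711 genes tested). Expression in LNCaP-enzaR was higher for 13 of them and lower for 7. The shares of the ABC genes tested were 38.2% higher and 20.6% lower, where all genes tested had 23.3% higher and 19.5% lower (42.7% in either direction). The libraries of the lines did not overlap for 27 ABC genes (79.4%, against 70.6% of all genes tested and 77.9% of the protein-coding ones). The median log2 fold change, LNCaP-enzaR over parental, was 0.26 over the ABC genes tested and 0.01 over all genes tested. Since these are bulk cultures, fewer cells that make a transcript and less transcript per cell cannot be told apart. Subfamilies went different ways, with 8 of 9 tested ABCA genes and 2 of 3 tested ABCG genes higher, and no ABCB gene higher but 4 of 7 lower. Among these, ABCA4, ABCA8, ABCA13 and ABCG4 passed the filter only through their LNCaP-enzaR counts. ABCB5 and ABCB11 passed it only through their parental counts. For such genes the filter favoured the direction in which they were called, so these tallies are a description.

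**Figure D1:**
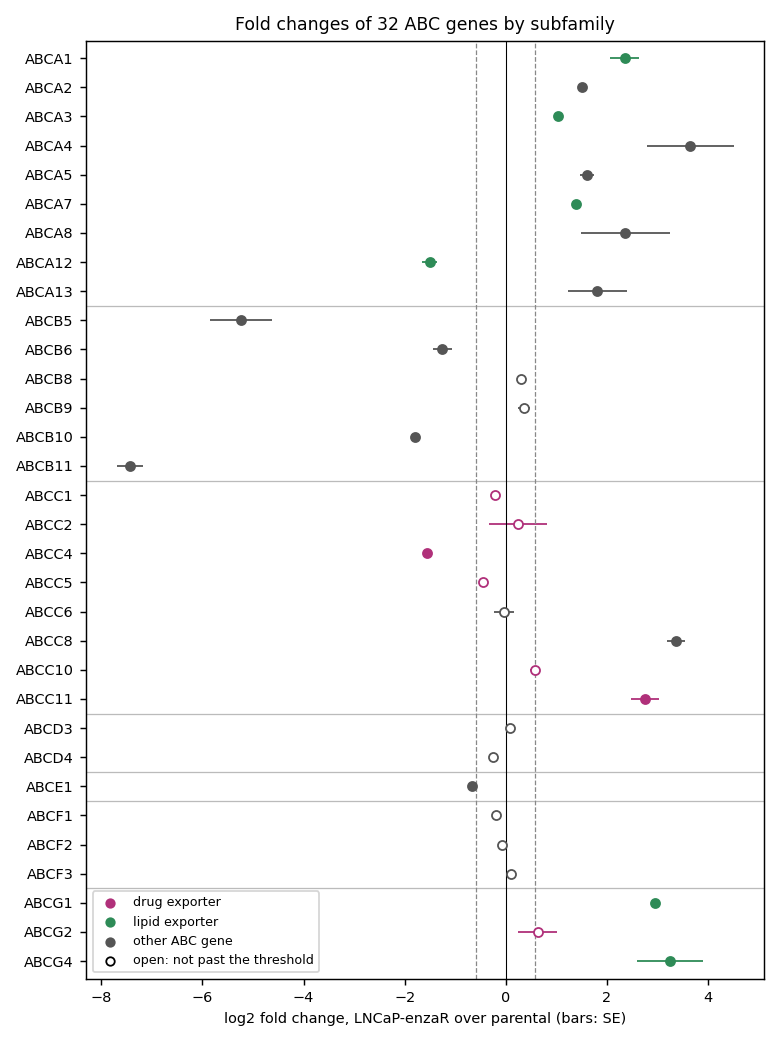
Log2 fold change of 32 of the 34 ABC genes tested, LNCaP-enzaR over parental (x axis, log2 scale), by gene (y axis, in subfamily order). Points are fitted values, bars are standard errors, filled points were past the threshold, and the dashed lines mark a fold change of 1.5. The ABCA genes apart from ABCA12 lie to the right and the filled ABCB genes lie to the left, with ABCB11 lowest at −7.43.

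Most of the lipid exporters that could be tested were higher in LNCaP-enzaR. Of the 9 genes listed, 6 were tested, of which 5 were higher and 1 was lower, beside 23.3% and 19.5% of all genes tested. The list was chosen with earlier results of these data known, so this tally is a description. ABCG4 passed the filter only through its LNCaP-enzaR counts, and ABCB4, whose counts were lower in LNCaP-enzaR, did not pass it. ABCG1 (ENSG00000160179.19, chromosome 21, 42199689 to 42297244), which loads cholesterol onto HDL particles, had 4.71, 5.01 and 6.09 CPM in parental libraries 1 to 3 and 43.6, 40.9 and 38.1 CPM in LNCaP-enzaR libraries 1 to 3. Every LNCaP-enzaR library lay far above the parental ones, and the mean rose from 5.27 ± 0.722 to 40.9 ± 2.73 CPM (mean ± SD over 3 libraries, as for every mean below). This was a log2 ratio of 2.96 ± 0.10 (SE, adjusted p = 4.68e-12), the fitted log2 fold change of LNCaP-enzaR over parental by edgeR's quasi-likelihood test with Benjamini-Hochberg adjustment, used throughout. ABCA1 (ENSG00000165029.17, chromosome 9, 104781006 to 104928155), which hands cholesterol and phospholipid to lipid-poor apolipoproteins, had 0.475, 0.264 and 0.229 CPM in parental libraries 1 to 3 and 1.26, 1.91 and 1.80 CPM in LNCaP-enzaR libraries 1 to 3. Its groups did not overlap either, and parental replicate 1 was the highest of its group, with a log2 ratio of 2.35 ± 0.29 (SE, adjusted p = 6.42e-06). ABCG4 (ENSG00000172350.10, chromosome 11, 119149052 to 119162653), a sterol exporter best known from brain, had 5, 0 and 6 counts in parental libraries 1 to 3 and 46, 28 and 39 counts in LNCaP-enzaR libraries 1 to 3. All LNCaP-enzaR counts were above the parental ones although each was small, and a log2 ratio of 3.25 ± 0.66 (SE, adjusted p = 5.42e-04) was fitted. Without parental replicate 2 it was 2.65, and without parental replicate 3 it was 3.86.

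The other tested lipid exporters were the phospholipid transporters of subfamily A. ABCA3 (ENSG00000167972.14, chromosome 16, 2275881 to 2340746), which fills lamellar bodies with surfactant phospholipid in the lung, had 74.9, 75.6 and 74.6 CPM in parental libraries 1 to 3 and 169, 144 and 147 CPM in LNCaP-enzaR libraries 1 to 3. The parental values were nearly equal, every LNCaP-enzaR value was higher, and a log2 ratio of 1.03 ± 0.07 (SE, adjusted p = 4.33e-09) resulted. The pseudogene ABCA17P lies beside it with overlapping gene bounds, though none of the exonic sequence of ABCA3 is shared. ABCA7 (ENSG00000064687.13, chromosome 19, 1039997 to 1065572), a phospholipid transporter known as an Alzheimer disease risk gene, had 18.7, 20.0 and 19.8 CPM in parental libraries 1 to 3 and 60.7, 46.7 and 46.5 CPM in LNCaP-enzaR libraries 1 to 3. LNCaP-enzaR replicate 1 was the highest library and the groups stayed apart, with a log2 ratio of 1.39 ± 0.10 (SE, adjusted p = 1.05e-08). The exception to the direction was ABCA12 (ENSG00000144452.15, chromosome 2, 214931542 to 215138626), which moves ceramides into the lamellar granules of skin, with 4.8, 4.62 and 4.82 CPM in parental libraries 1 to 3 and 1.26, 1.77 and 1.96 CPM in LNCaP-enzaR libraries 1 to 3. Its parental values were close together and all above those of LNCaP-enzaR, with a log2 ratio of −1.51 ± 0.16 (SE, adjusted p = 8.50e-07). Summed over the list, lipid exporter expression was 105 ± 1.16 CPM in parental and 249 ± 23.4 CPM in LNCaP-enzaR cells (SD, n = 3 each), most of it from ABCA3, ABCA7 and ABCG1.

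ABCA1 and ABCG1 are textbook targets of the liver X receptors, nuclear receptors that sense oxysterols and bind DNA together with RXR. A list of 25 companions of the ABC genes (regulators, partners and other targets of these receptors, and superfamily members under other names) had 23 genes in the table. Of these, 22 were tested, 8 were higher and 1 was lower. The share in either direction was near the 42.7% of all genes tested. The split by direction was less even than over all genes tested, where 23.3% were higher and 19.5% lower, and is given as a description. The receptors went in opposite directions. NR1H3, the liver X receptor alpha, fell from 16.5 ± 1.27 to 6.71 ± 0.616 CPM (SD, n = 3 each), on the log2 scale −1.3 (adjusted p = 2.09e-08), while NR1H2, the beta receptor, rose from 63.6 ± 0.922 to 99.3 ± 10.6 CPM, or 0.64 (adjusted p = 1.83e-06) on that scale. RXRA, their shared partner, rose from 172 ± 2.31 to 292 ± 19.1 CPM, a log2 ratio of 0.76 (adjusted p = 2.79e-08). Among further target genes, LPCAT3, which remodels phospholipids, rose from 27.2 ± 1.16 to 69.4 ± 1.91 CPM, a log2 ratio of 1.35 (adjusted p = 1.33e-10). SREBF1, MYLIP and SMPDL3A stayed under the fold limit with log2 fold changes of 0.49, 0.20 and −0.20. NPC1, which releases cholesterol from lysosomes, rose from 39.3 ± 1.39 to 104 ± 1.37 CPM, a log2 ratio of 1.41 (adjusted p = 3.79e-11), and its partner NPC2 stayed under the fold limit at 0.52. APOA1, the apolipoprotein that accepts lipid from ABCA1, went from 0.255 ± 0.294 to 0.149 ± 0.111 CPM and did not pass the test (adjusted p = 0.406). NR1I2, the pregnane X receptor that controls drug exporters, did not pass the filter.

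Promoter sequences of RefSeq (GRCh38.p14, 300 bases that span the transcription start) were matched for 35 of the 45 ABC genes. They are shown for the sterol exporter ABCA1, for the ABCA gene with the highest level per kilobase, ABCA2, for the drug exporter that fell, ABCC4, and for the gene that fell most, ABCB11. Each is written 5′ to 3′ on the strand of the gene, and capitals mark matches to the motifs searched.
ABCA1 promoter, chr9:104928106-104928405, minus strand: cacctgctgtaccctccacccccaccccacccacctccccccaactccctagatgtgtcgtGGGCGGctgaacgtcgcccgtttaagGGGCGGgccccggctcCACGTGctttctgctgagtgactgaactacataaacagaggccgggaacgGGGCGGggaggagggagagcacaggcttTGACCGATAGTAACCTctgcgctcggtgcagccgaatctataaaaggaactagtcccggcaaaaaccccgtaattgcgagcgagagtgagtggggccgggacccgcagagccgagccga
ABCA2 promoter, chr9:137028873-137029172, minus strand: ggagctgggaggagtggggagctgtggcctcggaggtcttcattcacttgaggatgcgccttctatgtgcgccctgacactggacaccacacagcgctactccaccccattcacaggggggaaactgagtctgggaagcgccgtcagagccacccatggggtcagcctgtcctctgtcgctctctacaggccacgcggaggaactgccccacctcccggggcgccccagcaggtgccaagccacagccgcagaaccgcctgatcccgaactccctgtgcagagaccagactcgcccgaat
ABCC4 promoter, chr13:95301402-95301701, minus strand: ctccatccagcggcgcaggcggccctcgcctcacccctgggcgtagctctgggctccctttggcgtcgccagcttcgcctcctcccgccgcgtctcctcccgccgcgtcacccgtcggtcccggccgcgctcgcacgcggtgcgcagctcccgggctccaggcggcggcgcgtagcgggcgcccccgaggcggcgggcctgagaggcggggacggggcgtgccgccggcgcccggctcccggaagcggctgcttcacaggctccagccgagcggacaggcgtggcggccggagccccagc
ABCB11 promoter, chr2:169031275-169031574, minus strand: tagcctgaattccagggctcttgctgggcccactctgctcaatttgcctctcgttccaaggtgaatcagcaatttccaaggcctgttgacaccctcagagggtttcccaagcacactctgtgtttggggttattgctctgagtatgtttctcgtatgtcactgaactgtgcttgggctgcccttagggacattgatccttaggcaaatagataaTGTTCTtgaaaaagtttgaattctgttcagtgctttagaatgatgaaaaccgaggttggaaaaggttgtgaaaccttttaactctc
Motifs were searched on both strands. The liver X receptor element was written as the letters AGGTNA, then 4 bases of any kind, then NGGTCA. It occurred in 28 of 27305 promoters (0.103%) and, among the ABC promoters, in that of ABCA1 alone. There it lay on the opposite strand, 69 to 54 bases before the start. The ABCA1 window also held the GC box GGGCGG at 3 places and the E-box CACGTG at 1, motifs found in 44.6% and 7.43% of all promoters and in 18 and 4 ABC promoters. AGAACA, the core of the element read by steroid hormone receptors, occurred in 14.9% of all promoters and in 8 of the ABC promoters. In ABCB11 its complement began 36 bases before the start. The CCAAT box (CCAAT) occurred in 35.7% of all promoters and in 6 ABC promoters, but in none of the 4 shown. No matches overlapped in the windows shown. The windows of ABCA2 and ABCC4 held no match to any of these motifs, and that of ABCC4 had a GC content of 79.7%, where the median of all promoters was 58.3%. The promoters of ABCA4, ABCA8, ABCB4, ABCB5, ABCC1, ABCC3, ABCC8 and ABCG1 were not analysed here.

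The other ABCA genes past the threshold were all higher in LNCaP-enzaR. ABCA2 (ENSG00000107331.17, chromosome 9, 137007234 to 137028922), an endolysosomal transporter linked to sterol and sphingolipid handling, had 128, 139 and 136 CPM in parental libraries 1 to 3 and 426, 357 and 358 CPM in LNCaP-enzaR libraries 1 to 3. The lines were far apart relative to the spread within each, with a log2 ratio of 1.5 ± 0.07 (SE, adjusted p = 1.96e-10), and ABCA2 alone made up 9.36% of all ABC expression in CPM in parental and 22.8% in LNCaP-enzaR cells. ABCA5 (ENSG00000154265.16, chromosome 17, 69244311 to 69327244), also an endolysosomal member, had 2.67, 2.14 and 2.58 CPM in parental libraries 1 to 3 and 6.21, 8.19 and 8.21 CPM in LNCaP-enzaR libraries 1 to 3. Here too no parental value reached the lowest LNCaP-enzaR value, with a log2 ratio of 1.61 ± 0.14 (SE, adjusted p = 1.15e-07).

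The remaining ABCA genes were near the limit of detection and are given in counts. ABCA4 (ENSG00000198691.13, chromosome 1, 93992834 to 94121148), the retinoid flippase of photoreceptors, had 0, 0 and 5 counts in parental libraries 1 to 3 and 22, 25 and 24 counts in LNCaP-enzaR libraries 1 to 3. A fit to these counts gave a log2 ratio of 3.65 ± 0.86 (SE, adjusted p = 0.00177), which became 7.58 without parental replicate 3, when the parental counts were all 0 and the fitted value is no bound, and 3.05 and 3.06 without parental replicates 1 and 2. ABCA8 (ENSG00000141338.14, chromosome 17, 68867289 to 68955392) had 14, 0 and 0 counts in parental libraries 1 to 3 and 20, 20 and 36 counts in LNCaP-enzaR libraries 1 to 3. Its parental counts all came from 1 library, so that a log2 ratio of 2.36 ± 0.88 (SE, adjusted p = 0.0288) turned into 7.61, which is no bound, without parental replicate 1. The call was lost without parental replicate 2 (adjusted p = 0.0831), parental replicate 3 (0.0787) or LNCaP-enzaR replicate 3 (0.0987) and under DESeq2 (0.250). ABCA13 (ENSG00000179869.15, chromosome 7, 48171458 to 48647497), a very large member, had 5, 9 and 2 counts in parental libraries 1 to 3 and 16, 20 and 23 counts in LNCaP-enzaR libraries 1 to 3. All LNCaP-enzaR counts exceeded the parental ones, with a log2 ratio of 1.81 ± 0.59 (SE, adjusted p = 0.0144), but the call was lost without parental replicate 3 (adjusted p = 0.0667) or LNCaP-enzaR replicate 3 (0.0521).

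Drug exporters as a list did not move one way. Of 9 genes, 7 were tested, of which ABCC11 was higher, ABCC4 was lower and 5 were not past the threshold. Of all genes tested, 23.3% were higher and 19.5% lower. ABCC4 (ENSG00000125257.16, chromosome 13, 95019835 to 95301475), the exporter MRP4 of cyclic nucleotides, prostaglandins and conjugated steroids, had 169.9, 167 and 162 CPM in parental libraries 1 to 3 and 52.1, 59.6 and 57.6 CPM in LNCaP-enzaR libraries 1 to 3. The parental values were all nearly alike and roughly 3 times those of LNCaP-enzaR, with a log2 ratio of −1.56 ± 0.06 (SE, adjusted p = 3.04e-11). ABCC11 (ENSG00000121270.16, chromosome 16, 48165773 to 48247568), the exporter MRP8 of conjugates known from apocrine glands, had 0.194, 0.187 and 0.318 CPM in parental libraries 1 to 3 and 1.47, 1.77 and 1.44 CPM in LNCaP-enzaR libraries 1 to 3. The groups did not overlap although both were low, with a log2 ratio of 2.75 ± 0.27 (SE, adjusted p = 5.76e-07), and 5.07% of its exonic sequence overlaps LONP2 on the other strand.

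The drug exporter with the highest level per kilobase in LNCaP-enzaR, ABCC1 (ENSG00000103222.20, chromosome 16, 15949138 to 16143257), is MRP1, which exports glutathione conjugates, and had 174, 173 and 176 CPM in parental libraries 1 to 3 and 164, 142 and 146 CPM in LNCaP-enzaR libraries 1 to 3. Every LNCaP-enzaR value was below the parental ones, but a log2 ratio of −0.21 ± 0.06 (SE, adjusted p = 0.00702) was short of the fold limit. ABCC5 (ENSG00000114770.17, chromosome 3, 183919934 to 184017939), the nucleotide analogue exporter MRP5, had 24.3, 21.6 and 22 CPM in parental libraries 1 to 3 and 16.6, 15.4 and 17.3 CPM in LNCaP-enzaR libraries 1 to 3. It too was lower in each LNCaP-enzaR library, with a log2 ratio of −0.46 ± 0.08 (SE, adjusted p = 1.11e-04), short of the fold limit. ABCC10 (ENSG00000124574.15, chromosome 6, 43427366 to 43450427), the taxane exporter MRP7, had 6.76, 6.87 and 7.70 CPM in parental libraries 1 to 3 and 11.8, 10.1 and 9.90 CPM in LNCaP-enzaR libraries 1 to 3. All its LNCaP-enzaR values were higher, and a log2 ratio of 0.58 ± 0.10 (SE, adjusted p = 1.38e-04) lay just under the limit of 1.5-fold, which it passed in 8 alternatives with values of 0.59 to 0.68. These included leaving out parental replicate 3 (0.63), LNCaP-enzaR replicate 2 (0.61) or LNCaP-enzaR replicate 3 (0.63).

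ABCC2 and ABCG2, pumps of liver and gut that are often studied in drug resistance, were close to the limit of detection. ABCC2 (ENSG00000023839.12, chromosome 10, 99782640 to 99852594), the canalicular pump MRP2, had 9, 14 and 9 counts in parental libraries 1 to 3 and 6, 13 and 21 counts in LNCaP-enzaR libraries 1 to 3. Its groups overlapped, with a log2 ratio of 0.24 ± 0.57 (SE, adjusted p = 0.734), and the sign turned without LNCaP-enzaR replicate 3 (−0.16). ABCG2 (ENSG00000118777.12, chromosome 4, 88090150 to 88231628), the breast cancer resistance protein, had 18, 35 and 22 counts in parental libraries 1 to 3 and 44, 26 and 52 counts in LNCaP-enzaR libraries 1 to 3. Its groups overlapped as well, and a log2 ratio of 0.63 ± 0.39 (SE, adjusted p = 0.175) did not pass the test. ABCB1, which encodes P-glycoprotein, had 0, 0 and 0 counts in parental libraries 1 to 3 and 3, 0 and 6 counts in LNCaP-enzaR libraries 1 to 3, and ABCC3, which encodes MRP3, had 1, 3 and 0 counts in parental libraries 1 to 3 and 10, 7 and 12 counts in LNCaP-enzaR libraries 1 to 3. Neither passed the filter. The ABCC3 counts did not overlap, and the gene passed both the filter and the threshold when LNCaP-enzaR replicate 2 (log2 fold change 2.86) or parental replicate 2 (3.89) was left out. It was tested but not called with no filter (adjusted p = 0.0537), without parental replicate 1 (0.0515) and without parental replicate 3 (0.0607). Summed over the list, drug exporter expression was 371 ± 4.09 CPM in parental and 237 ± 9.15 CPM in LNCaP-enzaR cells (SD, n = 3 each), almost all of it from ABCC1, ABCC4 and ABCC5.

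**Figure D2:**
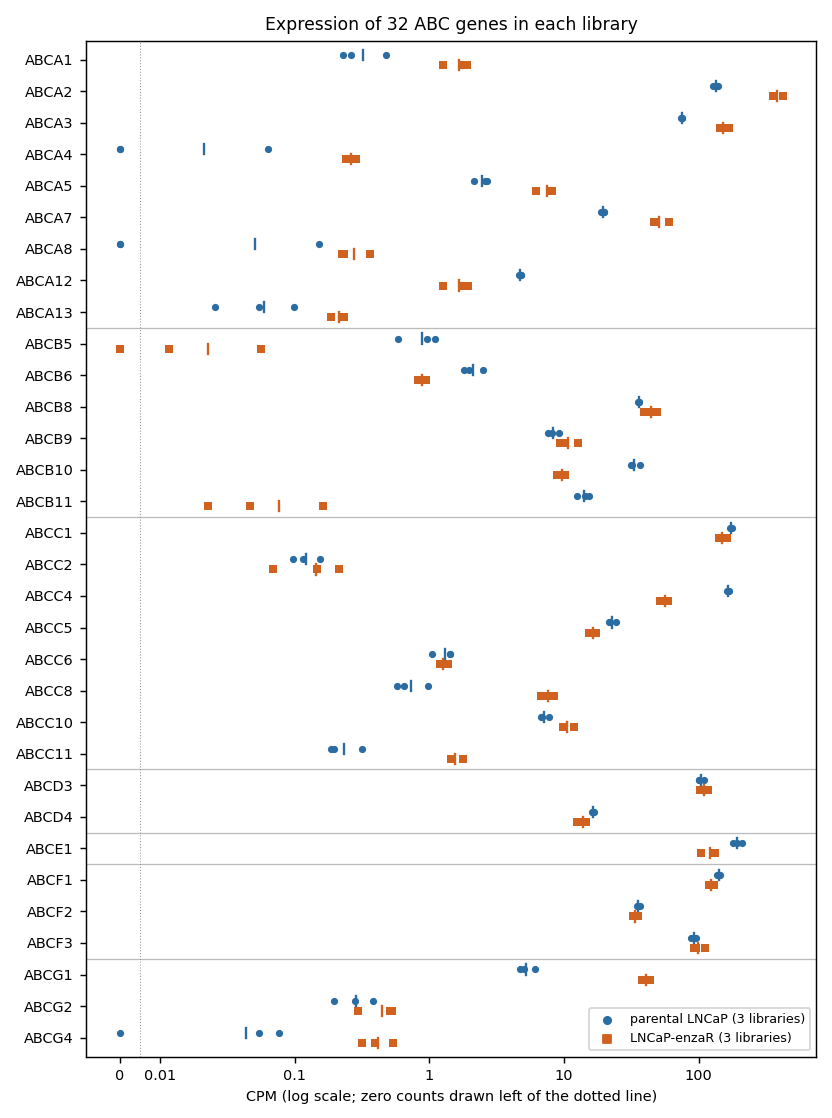
Expression of 32 of the 34 ABC genes tested in each library (x axis, CPM on a log scale, counts of 0 left of the dotted line), by gene (y axis). Circles are the 3 parental and squares the 3 LNCaP-enzaR libraries, and vertical ticks are group means. ABCC4, ABCB10 and ABCB11 have their squares left of the circles, ABCG1 and ABCC8 have them right, and ABCC2 and ABCG2 overlap.

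Subfamily B held the strongest decreases. ABCB11 (ENSG00000073734.10, chromosome 2, 168915498 to 169031324), the bile salt export pump of hepatocytes, had 15.4, 14.2 and 12.6 CPM in parental libraries 1 to 3 and 0.0464, 0.0226 and 0.161 CPM in LNCaP-enzaR libraries 1 to 3. In counts that was 1429, 1295 and 987 in parental and 4, 2 and 16 in LNCaP-enzaR libraries, so the gene went from moderate expression to near the limit of detection. A log2 fold change of −7.43 was fitted (SE 0.25, adjusted p = 6.56e-12), or −8.62 without LNCaP-enzaR replicate 3, the highest of its group. ABCB5 (ENSG00000004846.17, chromosome 7, 20615667 to 20777038), an exporter known from melanoma, had 102, 88 and 46 counts in parental libraries 1 to 3 and 1, 5 and 0 counts in LNCaP-enzaR libraries 1 to 3. It was low in parental cells and lower in every LNCaP-enzaR library, with a log2 ratio of −5.25 ± 0.61 (SE, adjusted p = 3.14e-06), or −7.03 without LNCaP-enzaR replicate 2 and −4.63 without LNCaP-enzaR replicate 3.

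ABCB10 (ENSG00000135776.5, chromosome 1, 229516582 to 229558707), a transporter of the mitochondrial inner membrane tied to haem synthesis, had 36.5, 31.6 and 32.2 CPM in parental libraries 1 to 3 and 8.95, 9.74 and 10.2 CPM in LNCaP-enzaR libraries 1 to 3. All LNCaP-enzaR libraries were well below the parental ones, with a log2 ratio of −1.80 ± 0.08 (SE, adjusted p = 1.39e-10). ABCB6 (ENSG00000115657.14, chromosome 2, 219209772 to 219218994), a porphyrin transporter, had 1.98, 2.50 and 1.82 CPM in parental libraries 1 to 3 and 0.823, 0.872 and 0.937 CPM in LNCaP-enzaR libraries 1 to 3. Its groups did not overlap, with a log2 ratio of −1.26 ± 0.19 (SE, adjusted p = 4.17e-05), but 54.6% of its exonic sequence is shared with another gene on the same strand, so its counts are uncertain. FECH, the ferrochelatase that works beside ABCB10, went from 317 ± 2.77 to 222 ± 10.5 CPM and stayed under the fold limit, at −0.52 (adjusted p = 8.10e-07). ABCB8, another mitochondrial member, went from 35.9 ± 0.379 to 44 ± 5.08 CPM, with a log2 ratio of 0.29 (adjusted p = 0.00424). ABCB9, a lysosomal peptide transporter, went from 8.32 ± 0.827 to 10.7 ± 1.71 CPM, with a log2 ratio of 0.36 (adjusted p = 0.0137), and 24.6% of its exonic sequence overlaps a gene on the other strand. The peptide transporters of antigen presentation, TAP1 and TAP2, which belong to the same subfamily under other names, had log2 fold changes of 0.57 (adjusted p = 9.90e-06) and 0.05 (adjusted p = 0.598), both under the fold limit.

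ABCB4, the phosphatidylcholine floppase of bile, was a lipid exporter that did not pass the filter. It had 10, 14 and 18 counts in parental libraries 1 to 3 and 4, 0 and 6 counts in LNCaP-enzaR libraries 1 to 3. The counts did not overlap, and with no filter the fitted value was −2.14 (adjusted p = 0.0378). Leaving out parental replicate 1, LNCaP-enzaR replicate 1 or LNCaP-enzaR replicate 3 also put it past the threshold, while without LNCaP-enzaR replicate 2 it was not called (−1.57, adjusted p = 0.0940).

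Outside the drug exporters, subfamily C held an ion channel subunit. ABCC8 (ENSG00000006071.16, chromosome 11, 17392498 to 17476894), the sulfonylurea receptor SUR1 that gates ATP-sensitive potassium channels, had 0.573, 0.978 and 0.649 CPM in parental libraries 1 to 3 and 8.38, 6.74 and 7.57 CPM in LNCaP-enzaR libraries 1 to 3. Each LNCaP-enzaR value was several times the highest parental one, with a log2 ratio of 3.36 ± 0.18 (SE, adjusted p = 5.74e-10). KCNJ11, the pore subunit that assembles with it and lies beside it on chromosome 11, rose from 4.43 ± 0.723 to 8.32 ± 1.60 CPM, on the log2 scale 0.91 (adjusted p = 8.02e-05). ABCC6, mutated in a disorder of ectopic calcification, went from 1.3 ± 0.220 to 1.26 ± 0.0969 CPM, with a log2 ratio of −0.04 (adjusted p = 0.864), and its counts may be shared with the near-identical pseudogenes ABCC6P1 and ABCC6P2.

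In subfamily D, ABCD3, the peroxisomal membrane protein for branched-chain substrates, went from 104 ± 5.49 to 109.6 ± 7.49 CPM, with a log2 ratio of 0.07 (adjusted p = 0.332). ABCD4, which releases cobalamin from lysosomes, went from 16.5 ± 0.298 to 13.8 ± 1.07 CPM, with a log2 ratio of −0.26 (adjusted p = 0.0107). PEX19, the chaperone that delivers peroxisomal membrane proteins, rose from 74.4 ± 3.26 to 143 ± 3.44 CPM, a log2 ratio of 0.94 (adjusted p = 2.20e-09), and its docking partner PEX3 stayed under the fold limit at 0.27.

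ABCE1 (ENSG00000164163.11, chromosome 4, 145098288 to 145129524), the ribosome recycling factor, had 210.2, 194 and 180.2 CPM in parental libraries 1 to 3 and 105, 132 and 131 CPM in LNCaP-enzaR libraries 1 to 3. Its highest LNCaP-enzaR value stayed below the lowest parental one, with a log2 ratio of −0.67 ± 0.08 (SE, adjusted p = 6.51e-06), and 6.52% of its exonic sequence overlaps OTUD4 on the other strand. Without LNCaP-enzaR replicate 1 the value was −0.56, and with upper-quartile scaling it was −0.57, both short of the fold limit. The translation factors of subfamily F stayed under the fold limit. ABCF1 went from 141 ± 3.98 to 123 ± 6.14 CPM, with a log2 ratio of −0.19 (adjusted p = 0.00776), ABCF2 from 35.8 ± 1.02 to 33.9 ± 1.40 CPM, with −0.08 (adjusted p = 0.278), and ABCF3 from 92.7 ± 3.85 to 99.8 ± 9.72 CPM, with 0.11 (adjusted p = 0.195). For ABCF2, 37.1% of the exonic sequence is shared with a readthrough gene on the same strand.

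Partners of the ABC exporters were also among the companions that rose. PDZK1 and NHERF1 (SLC9A3R1), scaffolds that hold transporters at the apical membrane, rose from 0.163 ± 0.0494 to 0.705 ± 0.146 CPM, a log2 ratio of 2.10 (adjusted p = 1.45e-04), and from 150.3 ± 4.41 to 289.7 ± 20.8 CPM, a log2 ratio of 0.95 (adjusted p = 4.55e-09). The membrane linkers EZR and RDX stayed under the fold limit at 0.22 and 0.09. LMBRD1 (0.26) and SLC25A37 (0.24), partners of ABCD4 and ABCB10, did so too.

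**Figure D3:**
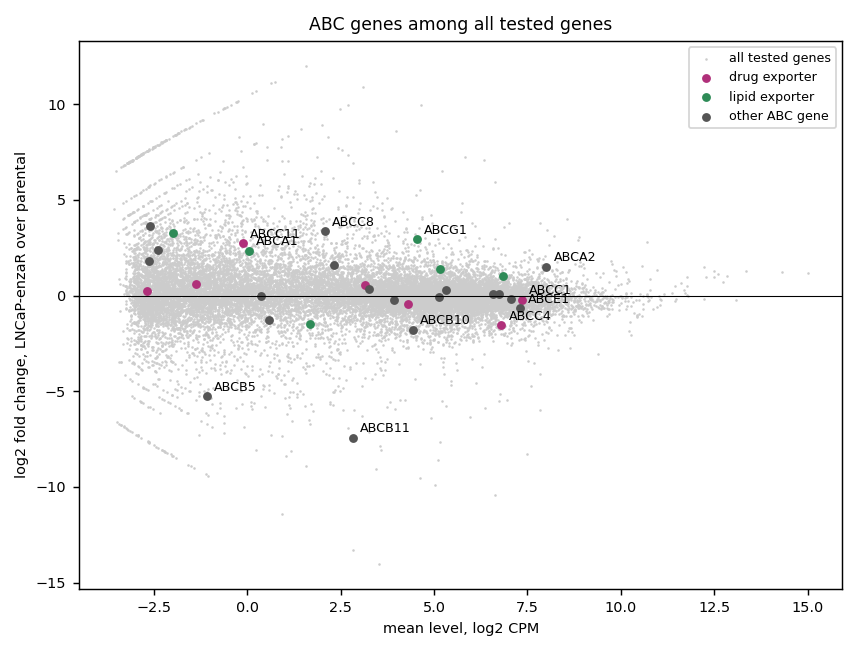
Log2 fold change, LNCaP-enzaR over parental (y axis), against mean level in log2 CPM (x axis) for the genes tested (grey) and 32 ABC genes (coloured by list). ABCG1, ABCC8 and ABCB11 lie at the edge of the cloud for their level, while ABCC1 and ABCE1 lie near the middle.

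Levels of different genes were compared per kilobase of exon. In parental cells high levels were found for ABCF1 at 31.4 ± 0.886, ABCE1 at 31.2 ± 2.40, ABCC1 at 20.0 ± 0.182 and ABCC4 at 19.3 ± 0.459 CPM per kb (SD, n = 3). ABCF1 and ABCE1 did not differ beyond their spread. In LNCaP-enzaR cells they were found for ABCA2 at 33.1 ± 3.43 CPM per kb, ABCF1 at 27.5 ± 1.37, ABCA3 at 19.6 ± 1.74 and ABCE1 at 19.6 ± 2.44. ABCA3 and ABCE1 overlapped. Among the 45 ABC genes ABCA2 thus went from rank 8 to rank 2 and ABCG1 from rank 19 to rank 10, whereas ABCC4 went from rank 5 to rank 12 and ABCB11 from rank 17 to rank 35.

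Summed expression was set mostly by a few abundant genes. ABCA genes together had 237 ± 6.41 CPM in parental and 596 ± 59.2 CPM in LNCaP-enzaR cells, a ratio of 2.52, and ABCG genes had 5.64 ± 0.753 and 41.8 ± 2.77 CPM, a ratio of 7.40 (SD, n = 3 each). ABCC genes went from 373 ± 4.12 to 245 ± 9.82 CPM and ABCB genes from 135 ± 4.74 to 104 ± 4.67 CPM. In each of these 4 subfamilies the libraries of the lines did not overlap. The whole family summed to 1437 ± 13.9 and 1666 ± 90.9 CPM, a ratio of 1.16.

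**Figure D4:**
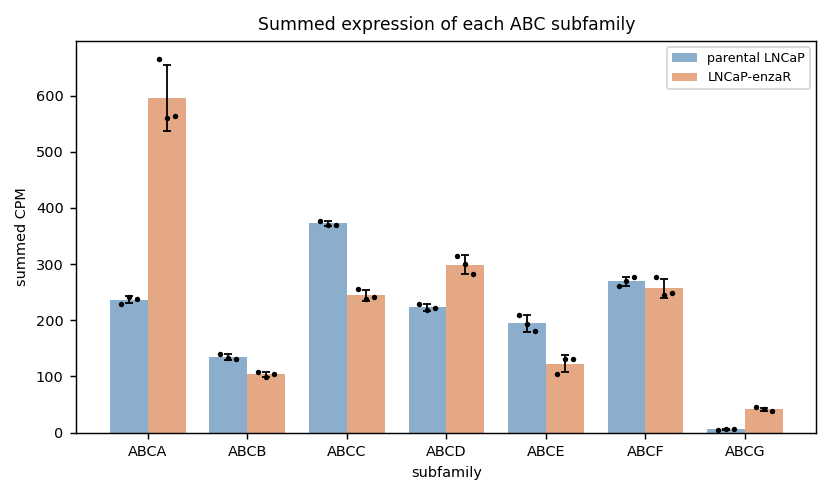
Summed expression of each ABC subfamily (y axis, CPM; x axis, subfamily) in parental and LNCaP-enzaR cells. Bars are means of 3 libraries from 0, error bars are SDs and dots are libraries. ABCA is at 237 and 596 CPM and ABCC at 373 and 245 CPM.

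Of the 20 ABC genes past the threshold, 9 had a fitted fold change of at least 4, of which 7 were higher (ABCA1, ABCA4, ABCA8, ABCC8, ABCC11, ABCG1 and ABCG4) and 2 were lower (ABCB5 and ABCB11). The share of all genes tested at this fold limit was not worked out, so these counts are a description. Only ABCG1, ABCC8 and ABCB11 among these 9 exceeded 5 CPM in a line. Means were under 1 CPM in both lines for 5 of the 20, ABCA4, ABCA8, ABCA13, ABCB5 and ABCG4. Among the 21 tested ABC genes with 5 CPM or more on average over the libraries, 6 were higher and 4 lower, shares near the 23.3% and 19.5% of all genes tested.

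Genes around some members moved in the same direction. Neighbours were the tested genes outside the family with a mean of at least 1 on the log2 CPM scale within 5 Mb. ABCB11, ABCA12 and ABCB6 all lie on the long arm of chromosome 2. Around ABCB11, 27 of 32 neighbours were past the threshold and lower, with a median log2 fold change of −1.24. Around ABCB6 it was 28 of 50 with a median of −0.65, and around ABCA12 it was 23 of 47 with a median of −0.56. The windows of ABCB6 and ABCA12 overlap, so neighbours in the shared stretch were counted for both. Around ABCB5 on chromosome 7, 13 of 28 neighbours were past the threshold and lower, with a median of −0.47. Of all genes tested, at any level, 19.5% were lower. ABCB10 and ABCC4 had neighbour medians of −0.03 and −0.10. The medians ranged from −0.38 (around ABCC8) to 0.23 (around ABCA13) for the ABC genes described here that were higher. The part of these regional values in the results of single genes was not tested.

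**Figure D5:**
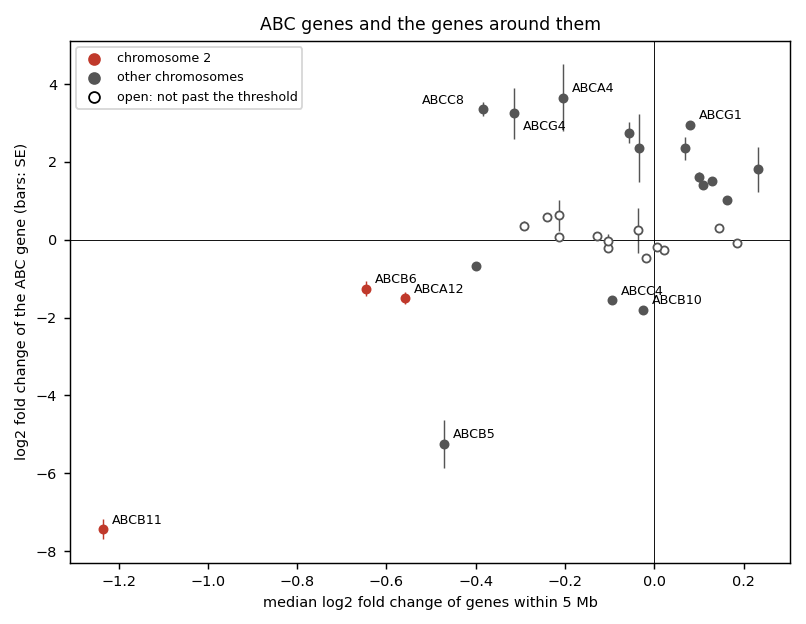
Log2 fold change of 32 of the ABC genes tested (y axis, bars are SE) against the median log2 fold change of the other genes within 5 Mb (x axis). Red points lie on chromosome 2 and filled points were past the threshold. ABCB11 is alone at the lower left, with −7.43 against a neighbour median of −1.24, while ABCC4 and ABCB10 fell with neighbour medians near 0.

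Fold changes also went with the base composition of transcripts. Across the 19673 tested genes with a GC content, which share the same 6 libraries, Spearman's rho between log2 fold change and GC content was 0.17, and over the 34 ABC genes it was 0.31, given as a description. The median GC content was 53.7% in the ABC genes that were higher, 43.2% in those that were lower, 51.6% in the others and 48.2% over all genes tested. After subtracting the median of the tenth of genes nearest in GC content, an alternative chosen after seeing the data, ABCE1 was at −0.48, short of the fold limit. Of the 20 ABC genes past the threshold, 18 stayed beyond it in fold.

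The 11 ABC genes that did not pass the filter had at most 18 counts in any library. Besides ABCB1, ABCB4 and ABCC3 they were the lipid exporters ABCG5 and ABCG8, which form the intestinal and biliary sterol pump, with at most 3 and 6 counts, ABCA6, ABCA9 and ABCA10 with at most 1, 1 and 16, the potassium channel subunit ABCC9 with at most 7, ABCC12 with at most 2 and the peroxisomal ABCD2 with at most 16. For these last 8 genes a difference was not detectable at this depth. The counts of ABCC9 did not overlap between the lines, but with no filter its adjusted p was 0.377.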

How the data were processed

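RNA was sequenced as paired-end reads in 3 parental LNCaP and 3 LNCaP-enzaR libraries, grouped by their titles. Reads were trimmed with Cutadapt, aligned to GRCh38 with STAR and the GENCODE annotation, and counted per gene with featureCounts by the authors, and the deposited table holds raw counts, not normalized. How strand and multi-mapping reads were handled is not given in the sources used here, so genes with overlapping exons or near-identical copies are uncertain.

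The members and lists were chosen with earlier results of these data known. Counts were analysed with edgeR 4.0.16 (limma 3.58.1) in R 4.3.3 with filterByExpr, which kept 19711 genes holding 99.96% of the counts, TMM scaling and its quasi-likelihood test with robust estimation and the line as the only factor. Benjamini-Hochberg adjustment covered all genes tested, and the threshold was an adjusted p of 0.05 with a fold change of 1.5, the limits in the study's methods. These name DESeq2, run here as an alternative (version 1.42.0). Values in every library are given for tested drug and lipid exporters and for any other member past the threshold. Other members are given by mean, apart from 2 that enter the counts but are not reported here, and companions past the threshold by mean and fold change. The test was checked on simulated data.

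Libraries of a line were not duplicates, since the chi-square of their counts was 5.56 to 35.6 per degree of freedom. LNCaP-enzaR replicate 1 stood apart from replicates 2 (35.6) and 3 (28.2) of its line, while the other pairs had 5.56 to 9.06. Coordinates follow the deposited table and count from 1. Strand, exonic length, GC content and exon overlap came from GENCODE v44, which held 99.8% of the table's gene identifiers and all 45 ABC genes, 42 with the same coordinates. Alternatives were DESeq2, other scalings and filters, other fold limits, protein-coding genes only, no mitochondrial genes, the replicate number as a block, each library left out in turn and, added after seeing the data, centring on GC content.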

Additional observations from a re-analysis of the deposited data

How the results depend on the processing

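Of the 34 ABC genes tested, 25 kept their side of the threshold and their direction under every alternative at the 1.5-fold limit that tested them. The other fold limits did not enter this number. Leaving out each library in turn gave 12 to 15 higher and 7 to 8 lower ABC genes, 8372 to 8517 genes past the threshold in all and 8 to 10 companions. DESeq2 gave 13 higher and 7 lower. The fold limit moved the counts most. With no minimum fold change 11 ABC genes were lower, 16 were higher, 13074 genes were called in all and 18 companions were called, and with a limit of 2-fold 5561 genes and 4 companions were called. Under upper-quartile scaling the median log2 fold change of all genes was 0.10 higher and 60.9% of the calls were higher instead of 54.5%, with 14 ABC genes higher and 6 lower. It turned the sign of ABCC6 to 0.058 and of ABCF2 to 0.020, neither of them past the threshold. Leaving out each library in turn gave −0.18 to 0.028 for ABCC6 (above 0 without parental replicate 1 or 3) and −0.16 to 0.56 for ABCC2 (below 0 without LNCaP-enzaR replicate 3). The cause was not tested. Replicate numbers did not pair the samples: the correlation of deviations between same-numbered libraries lay between −0.21 and 0.0085. With the replicate block 13 ABC genes were higher, 7 were lower, 8212 genes and 9 companions were called. Requiring at least 10 counts in every library left 27 ABC genes, with 10 higher and 5 lower. Of all 16331 genes tested under that filter, 3587 were higher and 3153 lower. Low counts limit ABCA4, ABCA8, ABCA13, ABCB5, ABCC2, ABCG2 and ABCG4.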
